A study of Mus musculus with 3 samples.

Results

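CD8 T cells of MC38 tumours were compared between a library labelled mix and a library labelled PBS. MC38 is a mouse colon carcinoma line, and the study's title speaks of LAG3-directed interleukin-2. Treatment lasted 5 days, tumours were collected on day 15, and CD3-stained cells were sorted for 10x Genomics single-cell 3′ libraries, per the labels. The labels name the groups only as PBS, mix and homo and give no agent, dose, strain, age or number of animals. Each group is 1 library, so no test between the groups was possible, and every interval given here covers counting error only. A cell was kept if it had at least 500 genes, at least 1000 unique molecular identifiers (UMIs, each a counted transcript) and under 10% mitochondrial UMIs. It also had to hold at least 1 UMI of a CD3 gene, at least 1 of Cd8a or Cd8b1, and none of Cd4 or Foxp3. This gate held 5839 of 8461 deposited cells in mix and 7621 of 10351 in PBS, in all 13460 of the 27340 cells of the series. UMIs were summed over the gated cells of each library and scaled to counts per 1000000 UMIs (CPM), and the ratio of mix over PBS was taken for the 7786 genes with at least 10 CPM in either library. The genes named here as highest or lowest were selected on that ratio, so their ratios are a description.

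CD8 T cells read peptides on MHC class I through a T cell receptor made of an alpha and a beta chain, and each cell keeps the V genes it rearranged, so the daughters of 1 cell share them. They kill with perforin and with granzymes, a family of serine proteases stored in granules. Prolonged stimulation in a tumour is known to bring inhibitory receptors such as LAG3, PD-1 and TIM-3 and the transcription factor TOX, while interleukin-2 acts through JAK kinases and STAT5 to drive division, survival and granzyme production.

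The libraries were close in depth. The gated cells gave 37728763 UMIs in mix and 45232759 in PBS, with a median of 5704 and 5216 UMIs and of 2081 and 1966 genes per cell. Gated cells were 72.0% of the cells passing the filters in mix (exact 95% interval 71.0 to 72.9) and 76.1% in PBS (75.2 to 76.9), shares that the sort and the gate can set. Cd8a was found in 97.2% of gated mix cells and 96.4% of gated PBS cells, and 145 and 171 cells rested on a single Cd8a or Cd8b1 UMI. The exclusion of Cd4 and Foxp3 removed 8.59% of the CD8-positive cells in mix and 7.34% in PBS. The libraries shared 131 cell barcodes, 64 of them among gated cells. Of the markers of other cell types, the 11 macrophage genes summed to 15.9 CPM in mix and 32.5 in PBS, all with a UMI and led by Cd68 at 8.54 and 11.7 CPM, and the 10 dendritic cell genes to 62.8 and 76.8 CPM. B cell markers summed to 34.9 and 26.7 CPM, most of it Ighm, with Ms4a1 at 0 in both libraries. The 7 NK cell markers, which include Gzma, summed to 463 and 561 CPM, and the 6 gamma delta T cell markers to 120 and 93.5 CPM. Tumour epithelium markers, led by Epcam, summed to 5.14 and 4.89 CPM with Krt8 and Krt19 at 0, and CD4 and regulatory markers to 30.3 and 37.0 CPM with Cd4 and Foxp3 at 0 by the gate. Fibroblast, neutrophil and red blood cell lists stayed at 0.504 CPM or less.

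Most genes had nearly the same level in both libraries. The median log2 ratio of mix over PBS was -0.0021 over the 7786 genes, and the quartiles were -0.07 and 0.07. Of these genes, 42 exceeded PBS by 1.5-fold or more in mix (0.539% of those compared) and 47 lay below PBS by as much (0.604%). For 2-fold the counts were 17 (0.218%) and 23 (0.295%). Counts of list genes past 1.5-fold given below are to be read beside the shares of 0.539% and 0.604%. None past the limit in a short list is thus no result about that list. T cell receptor V and C genes made up 13 of the 42 and 23 of the 47, and a further 3 of the 42 were unnamed gene models, which left 26 named genes higher and 24 lower. Of the 89 genes past 1.5-fold, 46 reached 10 CPM in only 1 of the libraries, so their selection favoured a difference. The nearest genes on either side of the limits were Tmem273 at 0.59 and Eno3 at 0.58 for higher genes, Itgb7 at -0.59 and Gzme at -0.58 for lower genes, and Bcs1l at 10.01 CPM and Icmt at 9.993 CPM for the gene floor.

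**Figure D1:**
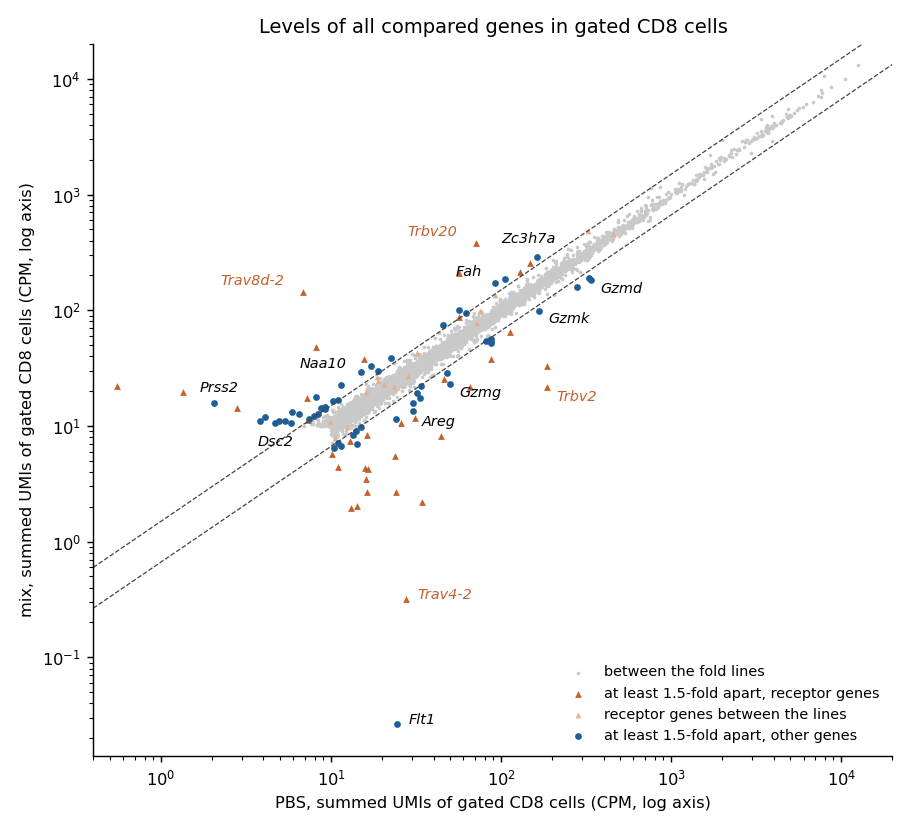
Summed level of each of the 7786 compared genes in gated CD8 cells of the PBS library (horizontal, CPM, log axis) and the mix library (vertical, CPM, log axis). Dashed lines mark 1.5-fold; triangles are T cell receptor genes. Most genes lie between the lines, Flt1 stands at 0.0265 CPM in mix against 24.6 CPM in PBS, and receptor genes such as Trbv2 and Trbv20 lie far out on both sides.

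Granzymes D to G and their neighbours lie in 1 cluster on chromosome 14 together with Gzmb. The 250 bases before the start of Gzmd (chr14:56132594-56132843), Gzme (chr14:56120626-56120875), Gzmg (chr14:56159580-56159829) and Gzmb (chr14:56262335-56262584), all on the minus strand of GRCm38.p6 in RefSeq, are shown because Gzmd and Gzmg were among the lowest genes and Gzmb was not. Capitals mark the longest run that Gzmd, Gzme and Gzmg share, 38 bases, and in Gzmb a match to the AP-1 motif TGANTCA, 58 bases before the start.
Gzmd: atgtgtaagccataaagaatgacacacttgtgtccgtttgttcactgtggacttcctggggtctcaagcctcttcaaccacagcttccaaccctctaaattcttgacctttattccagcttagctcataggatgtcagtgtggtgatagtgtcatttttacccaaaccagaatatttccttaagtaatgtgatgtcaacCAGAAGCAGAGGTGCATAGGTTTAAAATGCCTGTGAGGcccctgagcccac
Gzme: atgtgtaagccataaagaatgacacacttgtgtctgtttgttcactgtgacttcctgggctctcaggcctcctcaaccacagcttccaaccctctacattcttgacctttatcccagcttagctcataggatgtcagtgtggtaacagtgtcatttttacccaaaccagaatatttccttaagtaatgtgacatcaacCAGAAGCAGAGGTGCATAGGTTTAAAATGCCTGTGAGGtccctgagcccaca
Gzmg: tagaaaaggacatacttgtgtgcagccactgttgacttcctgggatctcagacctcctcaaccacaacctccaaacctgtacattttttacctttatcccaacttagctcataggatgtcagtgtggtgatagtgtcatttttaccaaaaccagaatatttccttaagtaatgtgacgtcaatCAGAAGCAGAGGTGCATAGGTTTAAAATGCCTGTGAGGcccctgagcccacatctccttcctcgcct
Gzmb: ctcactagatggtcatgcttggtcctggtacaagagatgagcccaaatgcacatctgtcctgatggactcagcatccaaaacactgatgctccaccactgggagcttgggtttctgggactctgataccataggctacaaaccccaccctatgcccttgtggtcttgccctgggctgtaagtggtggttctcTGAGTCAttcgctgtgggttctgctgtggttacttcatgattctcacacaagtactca
Aligned over these 250 bases, Gzmd and Gzme were identical at 94.8% of columns, Gzmd and Gzmg at 78.9%, and Gzmb and Gzmd at 47.3%. AP-1 is the transcription factor pair of FOS and JUN proteins. The motif TGANTCA, searched on both strands, was found in 1 of 9 matched genes of the granzyme and perforin list and in 7.82% of 27025 genes with a promoter in the table. The STAT motif TTCNNNGAA was in 0 of the 9 and in 8.13% of all. Of the windows of 91 bases in their transcripts, Gzmd shared 1.95% with Gzme or Gzmg, Gzme 0.726% and Gzmg 1.34%, and Gzmb, Gzmc and Gzmf none with each other or these (GENCODE M21 transcripts).

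Of the 10 granzyme and perforin genes, 9 were compared, of which 8 lay below 0 in log2 ratio and Gzmb above it. Of the 9, 4 passed 1.5-fold, all of them lower, beside 0.604% of all genes. The median log2 ratio of the 9 was -0.58 beside -0.0021 over all genes. Gzmg was at 22.9 CPM in mix against 50.03 CPM in PBS, a log2 ratio of -1.13 (95% interval -1.24 to -1.01), but 20 cells held 70.1% of its UMIs in mix and 20 held 75.4% in PBS, where 1 cell held 687 of the 2263. Gzmd stood at 181 and 339 CPM, a log2 ratio of -0.90 (-0.95 to -0.86). Both are known from strongly stimulated mouse killer cells. Gzma, a tryptase, was at 189 and 329 CPM with a log2 ratio of -0.80, and Gzmk, a granzyme of less differentiated effector cells, at 99.3 and 167 CPM with -0.75. Between the limits lay Gzme at 136 and 204 CPM (-0.58), Gzmf at 2892 and 3938 CPM (-0.45), Gzmc at 596 and 728 CPM (-0.29) and Prf1, the pore-forming perforin, at 575 and 620 CPM (-0.11). Gzmb, which cleaves caspases, was at 4001 CPM in mix and 3657 in PBS, a log2 ratio of 0.13. Gzmm was below the gene floor and not compared, with 5.20 CPM in mix (196 UMIs) and 3.89 in PBS (176 UMIs), a log2 ratio of 0.42 (0.12 to 0.72).

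Summed UMIs cannot tell fewer carrying cells from less RNA per cell, so each cell was also thinned to 2000 UMIs, which left out 324 shallower cells in mix and 357 in PBS. Gzmd was then found in 5.91% of mix cells and 10.1% of PBS cells, with a mean of 4.16 and 4.46 UMIs in the cells that held it. For Gzmk the shares were 15.7% and 24.1% and the means 1.60 and 1.59 UMIs. In Gzmd and Gzmk the shares differed more than the level per carrying cell. A cell with less RNA of a gene can also lose all its UMIs of that gene and drop out of the carrying cells. Shares and means thus cannot fully separate fewer carrying cells from less RNA per cell, least of all for Gzmk with its low means. Gzmg differed more in the level, with shares of 1.02% and 1.18% and means of 2.73 and 4.13 UMIs. Before thinning a few cells held most Gzmg UMIs in each library, as given above, so these means rest on few cells. Gzma was found in 7.36% and 11.7% of thinned cells, and Gzmb in 79.0% and 81.0%, with means of 9.68 and 8.71 UMIs for Gzmb. Before thinning, Gzmd was in 8.96% of mix and 13.4% of PBS gated cells. Among cells gated on Foxp3 without CD8 genes (median 3472 and 3118 UMIs) it was in 0.245% and 0.706%. Gzmf was in 3.93% and 6.0% of the Foxp3-gated cells, against 34.75% and 37.7% of gated CD8 cells, and Gzma in 1.35% and 1.06%. Whether the Foxp3-gated cells make these granzymes or hold stray UMIs was not tested.

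The 2 libraries held different T cell receptor families. Among gated cells with UMIs of exactly 1 Trbv gene (3932 in mix, 4918 in PBS), Trbv2 was the gene of 32.0% in PBS (exact 95% interval 30.7 to 33.3) and of 3.46% in mix. Trbv20 was the gene of 27.0% in mix (25.6 to 28.4) and of 5.51% in PBS. Trbv13-1 followed in mix with 12.6% against 4.39% in PBS, and Trbv17 was at 0.712% in mix and 5.69% in PBS. No Trbv gene had UMIs in 8.19% of mix and 8.91% of PBS cells, and several had UMIs in 24.5% and 26.6%, although the labels name a 3′ kit and V genes lie at the other end of the transcript.

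**Figure D2:**
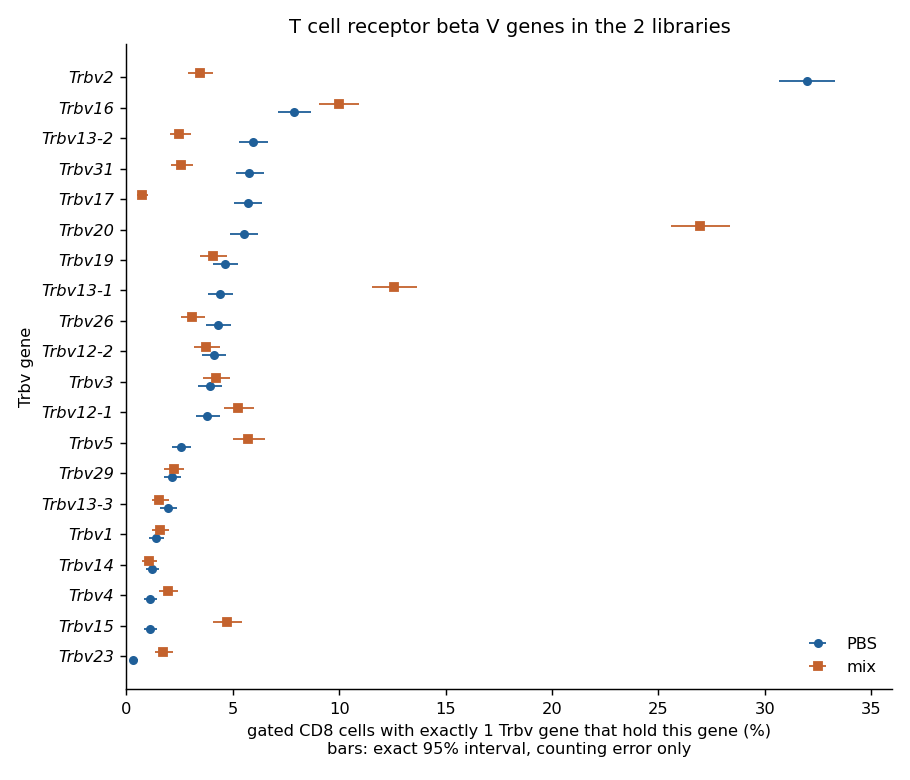
Share of gated CD8 cells with exactly 1 Trbv gene that hold each gene (horizontal, %), for PBS (circles) and mix (squares), with exact 95% intervals of counting error. Trbv2 stands at 32.0% in PBS and 3.46% in mix, Trbv20 at 27.0% in mix and 5.51% in PBS.

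Other receptor genes went with these families. In PBS, 663 of the 736 cells with Trav17 also held Trbv2. In mix, 485 of the 498 cells with Tcrg-V6, 433 of the 471 with Tcrg-C1 and 102 of the 105 with Trav9d-4 also held Trbv20. Whether these cells descend from 1 cell was not tested, since the counts hold no junction sequence. Over all gated cells, Trav4-2 had 12 UMIs in mix and 1252 in PBS (log2 ratio -6.44), and Trav8d-2 had 5386 and 311 (4.38). Tcrg-C1, a gamma chain constant gene, had 736 and 61 (3.86). Of 163 V genes, 44 were compared, of which 10 passed 1.5-fold upward and 23 downward, with a median of -0.80. Which V genes a tumour's cells carry differs between animals, and the labels do not say how many animals a library holds, so animal and treatment cannot be told apart.

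Several of the genes farthest apart were carried by these families. Flt1, the VEGF receptor 1 of endothelial cells, had 1 UMI in mix and 1111 UMIs in PBS, or 0.0265 and 24.6 CPM, which is 927-fold higher in PBS (95% interval 166 to 36610). Of the 721 PBS cells with Flt1, 665 also held Trbv2, and 93.8% of its UMIs lay in Trbv2 cells. Flt1 was in 34.4% of PBS cells with Trbv2 and in 0.984% of the other PBS cells. Areg, the epidermal growth factor receptor ligand amphiregulin, was at 13.4 CPM in mix and 30.3 in PBS (-1.18), and Trbv2 cells held 85.6% of its PBS UMIs. Its UMIs also lay in few cells, 20 of which held 79.2% of them in mix and 55.7% in PBS. For Gzmg and Gzmd, Trbv2 cells held 80.6% and 70.5% of the PBS UMIs. Gzmd was in 31.9% of PBS cells with Trbv2 and in 7.14% of the others.

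On the higher side, Prss2, a trypsinogen gene that lies within the Trb locus, had 601 UMIs in 121 mix cells and 93 UMIs in 22 PBS cells, or 15.9 and 2.06 CPM (log2 ratio 2.95, 95% interval 2.64 to 3.28). Of these 121 cells, 108 held Trbv16. Dsc2, a desmosomal cadherin, was at 11.95 and 4.09 CPM (1.55), and 87.8% of its mix UMIs were in Trbv20 cells while 70.3% of its PBS UMIs were in Trbv2 cells. Rln3, the peptide hormone relaxin 3, was at 10.97 and 3.83 CPM (1.52), with 70.8% of its mix UMIs in Trbv20 cells. For Flt1, Dsc2 and Rln3 a single family thus held most of the UMIs of the library where the gene was higher.

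The direction of part of the group turned when the cells with a Trbv2 or Trbv20 UMI were left out, which kept 4194 mix cells and 5298 PBS cells. Gzmd then had a log2 ratio of 0.31, Gzmg of 0.66, Areg of 1.08, Serpinb9b of 0.34 and Nrn1 of 0.34, all above 0 after having been below it. Rln3 was at -0.047 and Dsc2 at 0.01. Gzma at -1.16, Gzmk at -0.75, Lmna at -1.13 and Penk at -0.82 kept their direction, as did Flt1 at -6.00. The median of the granzyme and perforin list went from -0.58 to 0.18. Of the 42 higher genes 25 were still at least 1.5-fold higher and of the 47 lower genes 33 still at least 1.5-fold lower. Of the named ones these were 15 of 26 and 12 of 24.

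**Figure D3:**
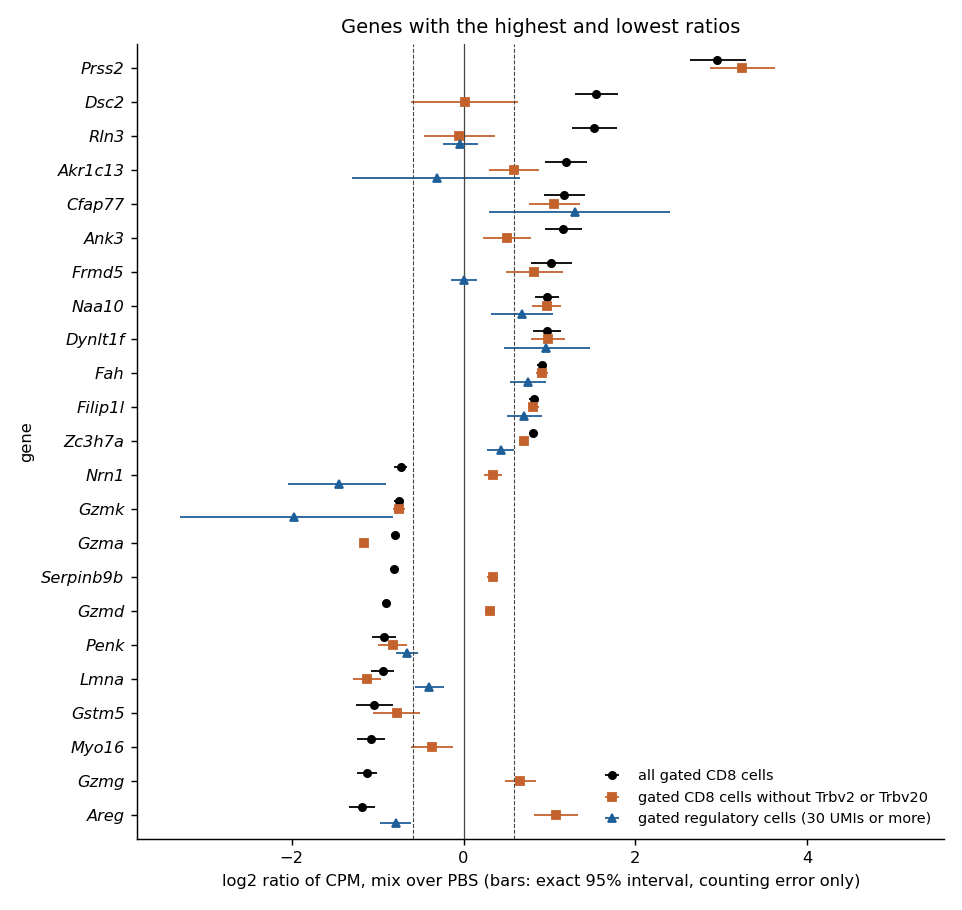
Log2 ratio of CPM, mix over PBS (horizontal), for the 12 highest and the 12 lowest named genes (Flt1, at -9.86, is outside the axis and not drawn), in all gated CD8 cells (circles), without cells holding Trbv2 or Trbv20 (squares) and in gated regulatory cells with enough UMIs (triangles), with exact 95% intervals of counting error. Fah, Filip1l, Zc3h7a, Naa10 and Dynlt1f are right of 0 in each, while Gzmd, Gzmg, Areg, Serpinb9b and Nrn1 move from the left of 0 to its right when Trbv2 and Trbv20 cells are left out.

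Levels were also taken within single families, for the 11 Trbv genes with at least 100 cells in each library. Families share a library and are not replicates, and the same Trbv gene need not mean the same clones in mix and PBS. The alpha, gamma or delta chain gene found most often with Trbv2 was Trav17 in PBS (34.3% of cells with Trbv2) and Trav6n-6 in mix (20.1%). With Trbv20 it was Tcrg-V6 in mix (33.5%) and Trav5-4 in PBS (28.2%). Gzmd in Trbv2 cells was at 417 CPM in mix and 735 in PBS, the highest family level in PBS. In Trbv19 cells it was at 445 CPM in mix and 23.01 in PBS. Over the 11 families Gzmd was higher in mix in 6 and lower in 5, among them Trbv31 with 0 CPM against 2.79, so the families did not share a direction. Gzmf was at 3997 CPM in mix and 8676 in PBS within Trbv2 cells, and it was higher in mix in 7 of the 11. Gzma was lower in mix in 7 of 11, with its highest PBS levels, 1560 and 1218 CPM, in Trbv31 and Trbv19 cells, where mix had 376 and 151 CPM. Gzmk was lower in 9 of 11, the exceptions being Trbv20 (0.94) and Trbv31 (0.91), and its median over families was -1.09. Areg in PBS was at 89.0 CPM in Trbv2 cells, 31.2 in Trbv5 cells and 7.46 or less in the other families.

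Lmna, which encodes the nuclear lamins A and C, was at 17.4 CPM in mix and 33.3 in PBS (-0.94) and lower in mix in 9 of the 11 families. Gstm5, a glutathione transferase, was at 6.92 and 14.2 CPM (-1.04) and lower in 9. These were less bound to 1 family than Areg or Gzmd. Penk, the enkephalin precursor, was at 15.9 and 30.2 CPM (-0.93), but 20 cells held 71.8% of its UMIs in mix and 20 held 56.7% in PBS. Serpinb9b, from the serpin family that holds the granzyme B inhibitor Serpinb9, was at 159 and 280 CPM (-0.81), and Nrn1, the neuronal surface protein neuritin, at 52.3 and 86.9 CPM (-0.73). Myo16, an unconventional myosin, was at 11.4 and 24.1 CPM (-1.08). Of the further lower genes, Anxa1, a phospholipid-binding annexin, was at 28.4 and 47.9 CPM (-0.75), and the monocyte and effector cell chemokine receptor Ccr2 at 19.2 and 32.1 CPM (-0.74). The other 10 of the 24 lower genes lay between -0.77 (Cnih2) and -0.59 (Itgb7, an integrin chain of gut homing), and these were also Serpine2, Plk2, Mt3, Tnip3, Sv2c, Exph5, Ier3 and Hist1h2bj.

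A second group of genes was higher in mix in every family. Fah, the last enzyme of tyrosine breakdown, was at 173 CPM in mix and 91.9 in PBS (log2 ratio 0.91, 95% interval 0.85 to 0.97). It was found in 61.0% of mix cells and 39.8% of PBS cells, and after thinning in 29.2% and 17.4%. Its family levels ran from 151 to 215 CPM in mix and from 77.0 to 101 CPM in PBS. Filip1l, named for its likeness to a filamin-binding protein, was at 185 and 105 CPM (0.82), with families from 155 to 256 CPM in mix and from 98.8 to 122.5 CPM in PBS. Zc3h7a, a zinc finger RNA-binding protein, was at 286 and 163 CPM (0.81), with family ratios from 0.13 to 0.96. Naa10, the catalytic subunit of an N-terminal acetyltransferase, was at 29.3 and 14.9 CPM (0.97), with family ratios from 0.17 to 1.62. Without Trbv2 and Trbv20 cells Fah was at 0.92, Filip1l at 0.81, Zc3h7a at 0.70 and Naa10 at 0.97, close to the values in all gated cells.

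Of the 7390 named genes compared, 35 were higher in mix in all 11 families and 22 were lower in all 11. Among the 35, 9 were at least 1.5-fold higher overall: Fah, Filip1l, Zc3h7a, Naa10, Dynlt1f, Cfap77, Erh, Ywhaq and Ahcy. Among the 22, 0 were at least 1.5-fold lower. Erh, an RNA-processing protein, was at 100.6 and 56.5 CPM (0.83), Ywhaq, a 14-3-3 protein, at 73.8 and 45.6 CPM (0.70), and Ahcy, the hydrolase of S-adenosylhomocysteine, at 29.8 and 18.9 CPM (0.66). Cfap77, named for cilia and flagella, was at 11.1 and 4.93 CPM (1.18), and the dynein light chain gene Dynlt1f at 22.4 and 11.4 CPM (0.97). Gapdh, the glycolytic enzyme, was at 2957 and 1987 CPM (0.57), with families from 2446 to 3611 CPM in mix and from 1145 to 2286 CPM in PBS. Among the 22, the cold-inducible RNA-binding protein Cirbp was at 61.1 and 83.7 CPM (-0.46), the replacement histone gene H3f3b was at -0.19 and the respiratory chain subunit Cox8a at -0.10.

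The ratios were also taken within kinds of gated cells. In 3 equal bands of UMIs per cell, divided at 4321 and 6723 UMIs, Fah had log2 ratios of 0.95, 0.97 and 0.89 from the lowest band to the highest, so its difference hardly varied with depth. Gzmd was at -0.46, -0.81 and -1.12 and Gzmk at -0.39, -0.52 and -0.97, farther below 0 in the deeper cells. In cells with Havcr2 and no Tcf7, Fah was at 0.91, Gzmd at -0.91 and Gzmk at -0.88. In cells with neither gene, Fah was at 0.90, Gzmd at -1.08 and Gzmk at -0.68, and in cells with Tcf7 and no Havcr2, Fah was at 0.93 and Gzmk at -0.33. Fah was at 0.87 in cells with a UMI of Mki67 or Top2a and at 0.93 in the others, while Penk was at -1.89 and -0.38. Without the gated cells that held a UMI of a macrophage, dendritic or B cell marker, Lmna was at -1.06 and Areg at -1.37, both still below 0.

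The other named genes at least 1.5-fold higher in mix were mostly of low level. They included Tlr7, the endosomal receptor of single-stranded RNA, at 10.6 CPM in mix and 5.79 in PBS (log2 ratio 0.87), and the transcriptional co-regulator Cited4 at 12.6 and 6.48 CPM (0.96). Akr1c13, an aldo-keto reductase, was at 10.6 and 4.67 CPM (1.19) and at 0.59 without Trbv2 and Trbv20 cells. Ank3, the membrane scaffold ankyrin G, was at 13.2 and 5.90 CPM (1.16) and at 0.51 without them. Frmd5, a FERM domain protein, was at 10.9 and 5.37 CPM (1.02) and at 0.82 without these cells. Jarid2, a cofactor of Polycomb repression, was at 93.9 and 62.0 CPM (0.60). Lysmd4, Dapl1, Camk2b, Cdk5rap1, Zcchc18, Sco1, Cd55 and Tmem273 lay between 0.72 (Lysmd4) and 0.59 (Tmem273).

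**Figure D4:**
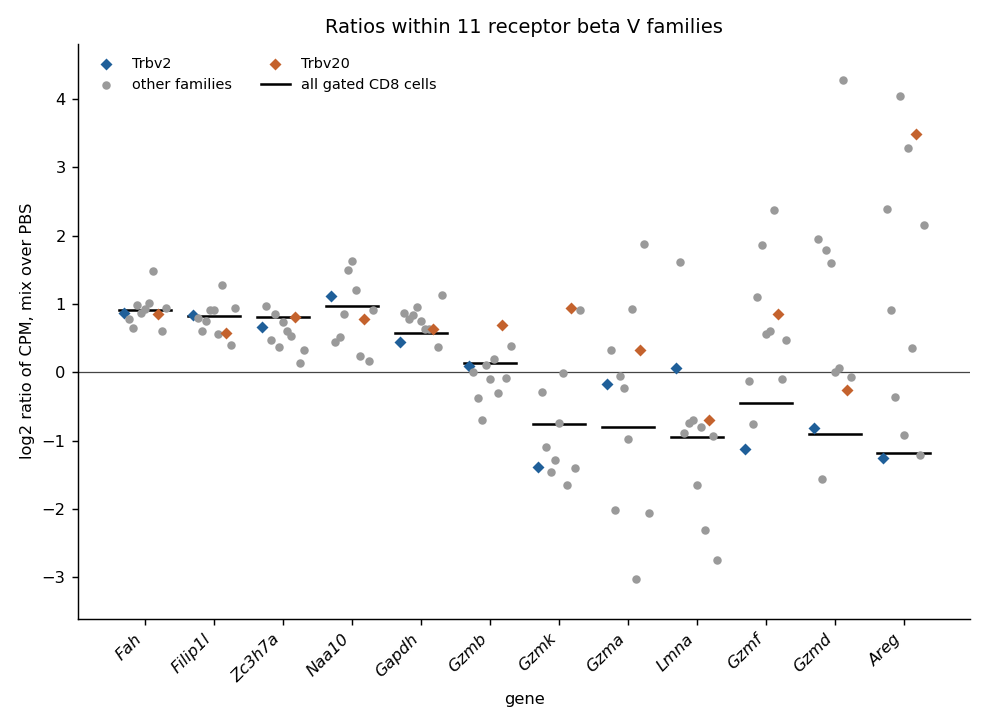
Log2 ratio of CPM, mix over PBS (vertical), of 12 genes within cells of 11 Trbv families (points; diamonds are Trbv2 and Trbv20), with the ratio over all gated CD8 cells as a black line. Every family lies above 0 for Fah, Filip1l, Zc3h7a, Naa10 and Gapdh, while Gzmd and Areg have families on both sides; Gzmd in Trbv31, at 0 CPM in mix, is not drawn.

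Fah, Filip1l, Naa10, Erh and Gapdh were also higher in other T cells of the mix library. In cells gated on Foxp3 without CD8 genes (815 in mix, 850 in PBS) Fah had a log2 ratio of 0.75, Filip1l of 0.71, Naa10 of 0.68, Erh of 1.02 and Gapdh of 0.51. In cells gated on Cd4 without Foxp3 or CD8 genes (319 and 325) Fah was at 1.02, Filip1l at 0.64, Naa10 at 0.87, Erh at 1.18 and Gapdh at 0.39. Zc3h7a was at 0.43 and 0.44, lower than in CD8 cells. Of the 35 genes, 23 were higher in mix in both of these gates (65.7%), against 32.2% of all 3633 named genes that were higher in gated CD8 cells. Of the 22 genes lower in every family, 12 were lower in both (54.5%), against 35.1% of 3757. The larger sets hold many ratios near 0, where the sign rests on a small difference, since the quartiles over all genes were -0.07 and 0.07. They are thus not sets of genes with like ratios. The 35 and the 22 genes were chosen for their sign in CD8 cells of these libraries. All gates come from the same 2 libraries, so a property of the whole library cannot be told apart from treatment.

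Several of these genes have near-identical copies, which makes their counts uncertain. Of the last 500 windows of 91 bases in the longest GENCODE M21 transcript, 78.4% in Erh, 61.2% in Dynlt1f, 57.8% in Eno1, 16.8% in Gapdh and 16.2% in Ahcy were also found in a transcript of another gene. Eno1, a glycolytic enolase, was at 0.42 and its copy Eno1b at -0.18. No such window was found in Fah, Filip1l, Zc3h7a, Cfap77, Prss2 or Flt1. For Naa10 and Ywhaq the shared windows, 16.7% and 26.3% of the whole transcript, lay outside the last 500. The last windows were taken because the labels name a 3′ kit, but V genes were read in most cells, so which end of a transcript was read is not settled here, and shared windows elsewhere in it may bear on the counts too. Whether reads were divided differently between copies in the 2 libraries was not tested.

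Type I interferon-stimulated genes were slightly higher in mix as a group. Interferons of type I switch on genes that carry an interferon-stimulated response element. Its core GAAANNGAAA, searched on both strands in the 250 bases before the start, was in 20 of 36 matched genes of the list (55.6%) and in 3.46% of all 27025 genes. Matches in Isg15, Ifit1, Ifit3 and Rsad2 are shown with 10 bases on either side and the core, or its reverse complement, in capitals, because these are known as strong targets. They lie at chr4:156200871-156200900 (minus strand), chr19:34640794-34640823 and chr19:34583397-34583426 (plus strand) and chr12:26456553-26456582 (minus strand) of GRCm38.p6 in RefSeq.
Isg15: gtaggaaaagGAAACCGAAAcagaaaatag
Ifit1: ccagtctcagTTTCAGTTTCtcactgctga
Ifit3: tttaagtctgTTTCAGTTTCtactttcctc
Rsad2: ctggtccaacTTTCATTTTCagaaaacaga
Of the 47 genes of the list 45 were compared, 0 were past 1.5-fold either way, 42 had a log2 ratio above 0, and the median was 0.19 beside -0.0021 over all genes. Isg15, a ubiquitin-like protein, was at 828 CPM in mix and 776 in PBS (0.09), Ifit1 at 189 and 182 CPM (0.05), Ifit3 at 394 and 368 CPM (0.10) and the antiviral enzyme Rsad2 at 122 and 105 CPM (0.22). Usp18, which removes ISG15 from proteins, was the highest at 271 and 202 CPM (0.43). The median thinned cell held 31 UMIs of the list in mix and 26 in PBS. Within families the list median was above 0 in 4 of 11 and ran from -0.27 to 0.56, the highest in Trbv2 cells. Isg15 in Trbv2 cells reached 739 CPM in mix but 469 CPM in PBS, the lowest family level of either library, and over all families Isg15 was lower in mix in 8 of 11. Without Trbv2 and Trbv20 cells the list median was 0.03, and it was 0.05 without Trbv2 cells alone and 0.19 without Trbv20 cells alone. The 15 interferon-gamma GTPase genes had a median of 0.13, which was -0.08 without these cells.

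The interleukin-2 pathway genes had a median near that of all genes. Of 21 genes of the receptor, its JAK and STAT proteins and STAT5 targets, 20 were compared, with a median of 0.011, 11 above 0 and 9 below. Among the 20, 0 were past 1.5-fold, beside 0.539% of all genes higher and 0.604% lower. The receptor chains Il2ra, Il2rb and Il2rg were at 72.6, 947 and 829 CPM in mix and 73.4, 852 and 833 CPM in PBS, log2 ratios of -0.02, 0.15 and -0.01. Of the targets, Myc, a driver of growth, was at 82.1 and 62.0 CPM (0.41), the survival gene Bcl2 at 260 and 207 CPM (0.33) and Cish, a feedback inhibitor of cytokine signals, at 194 and 155 CPM (0.32). Pim1, a kinase, was at 116 and 131 CPM (-0.18). Il2ra had a ratio above 0 in 5 of 11 families, from -0.33 to 0.74, and Il2rb in 8, from -0.15 to 0.64. Socs2, also on the list, was at 15.7 and 16.3 CPM (-0.06) and among the 22 genes lower in all 11 families, from -1.96 to -0.07. In cells gated on Foxp3 without CD8 genes Socs2 was at 0.44, and in cells gated on Cd4 at -0.37.

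The median over inhibitory receptors was near that of all genes. Of 17 genes, 15 were compared and the median was 0.0056. Among the 15, 0 were past 1.5-fold, beside 0.539% of all genes higher and 0.604% lower. Within families the list median was above 0 in 8 of 11 and ran from -0.14 to 1.27, the latter in Trbv31 cells. Lag3 was at 602 CPM in mix and 611 in PBS (-0.02), Pdcd1 (PD-1) at 574 and 571 CPM (0.01) and Havcr2 (TIM-3) at 179 and 196 CPM (-0.13). Cd244a, a receptor of the SLAM family, was highest at 63.7 and 42.9 CPM (0.57), and Cd160 lowest at 54.9 and 69.3 CPM (-0.34). Lag3 was above 0 in 8 of the 11 families, with a PBS range from 115 to 776 CPM that spanned its mix range from 409 to 721 CPM. Tox was at 182 and 143 CPM (0.35), above 0 in 8 of 11 families, and at 0.74 without Trbv2 and Trbv20 cells. Tcf7, which encodes the stem-like factor TCF1, was at 42.7 and 37.2 CPM (0.20), with family ratios from -2.19 to 2.90. Over the 16 exhaustion and effector transcription factors the median was 0.078, and 9 of 11 families had a median above 0. Of 14 stem-like and memory genes Dapl1 at 0.67 was past 1.5-fold, and the median was -0.028. That median was -0.32 without Trbv2 cells and 0.28 without Trbv20 cells, and within families it ran from -1.52 in Trbv20 cells to 1.52 in Trbv2 cells.

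Chemokines were lower in mix, without passing 1.5-fold. Of 6 compared genes 0 were past the limit and the median was -0.32, and it was -0.42 without Trbv2 and Trbv20 cells. Ccl5, made by effector cells, was at 2294 CPM in mix and 2961 in PBS (-0.37), Ccl3 at 214 and 293 CPM (-0.45) and Ccl4 at 993 and 1192 CPM (-0.26), while the interferon-induced Cxcl10 was at 41.9 and 31.9 CPM (0.39). The family medians of the list ran from -1.44 to 1.56 and were below 0 in 8 of 11. Chemokine receptors and recirculation genes had 1 of 11 past the limit (Ccr2) and a median of -0.23, with Klf2, a regulator of lymphoid homing, at 186 and 228 CPM (-0.30). Ifng was level at 372 and 370 CPM (0.01).

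Metabolic and cell cycle lists differed by small amounts. The 14 glycolysis genes had a median of 0.064 with 0 past 1.5-fold: Gapdh and Eno1 stood apart at 0.57 and 0.42, while Ldha, lactate dehydrogenase, was at 1305 and 1396 CPM (-0.10). Within families the glycolysis median was above 0 in 9 of 11 and ran from -0.17 to 0.65. The 12 respiratory chain genes of the mitochondrial genome had a median of 0.18, 10 of them above 0, with mt-Cytb at 335 and 257 CPM (0.38) and mt-Nd4l at 234 and 264 CPM (-0.17). The 71 nuclear respiratory chain genes had a median of -0.057, with 61 below 0. Within families the mitochondrial list was above 0 in 10 of 11 and the nuclear list below 0 in 9 of 11. Heat shock chaperones had 11 of 12 genes above 0 and a median of 0.15. Of 27 G2/M and mitosis genes 24 were below 0, with a median of -0.13 and 0 past the limit. The families did not share that direction, since the G2/M median was above 0 in 5 of 11 and ran from -0.63 to 1.17, the latter in Trbv5 cells with 27 of 27 genes above 0. Over all cells it was -0.03 without Trbv20 cells and -0.24 without Trbv2 cells. Mki67, a marker of dividing cells, was at 58.8 and 63.9 CPM (-0.12), and at least 1 UMI of Mki67 or Top2a was found in 11.5% of thinned mix cells and 11.7% of thinned PBS cells.

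**Figure D5:**
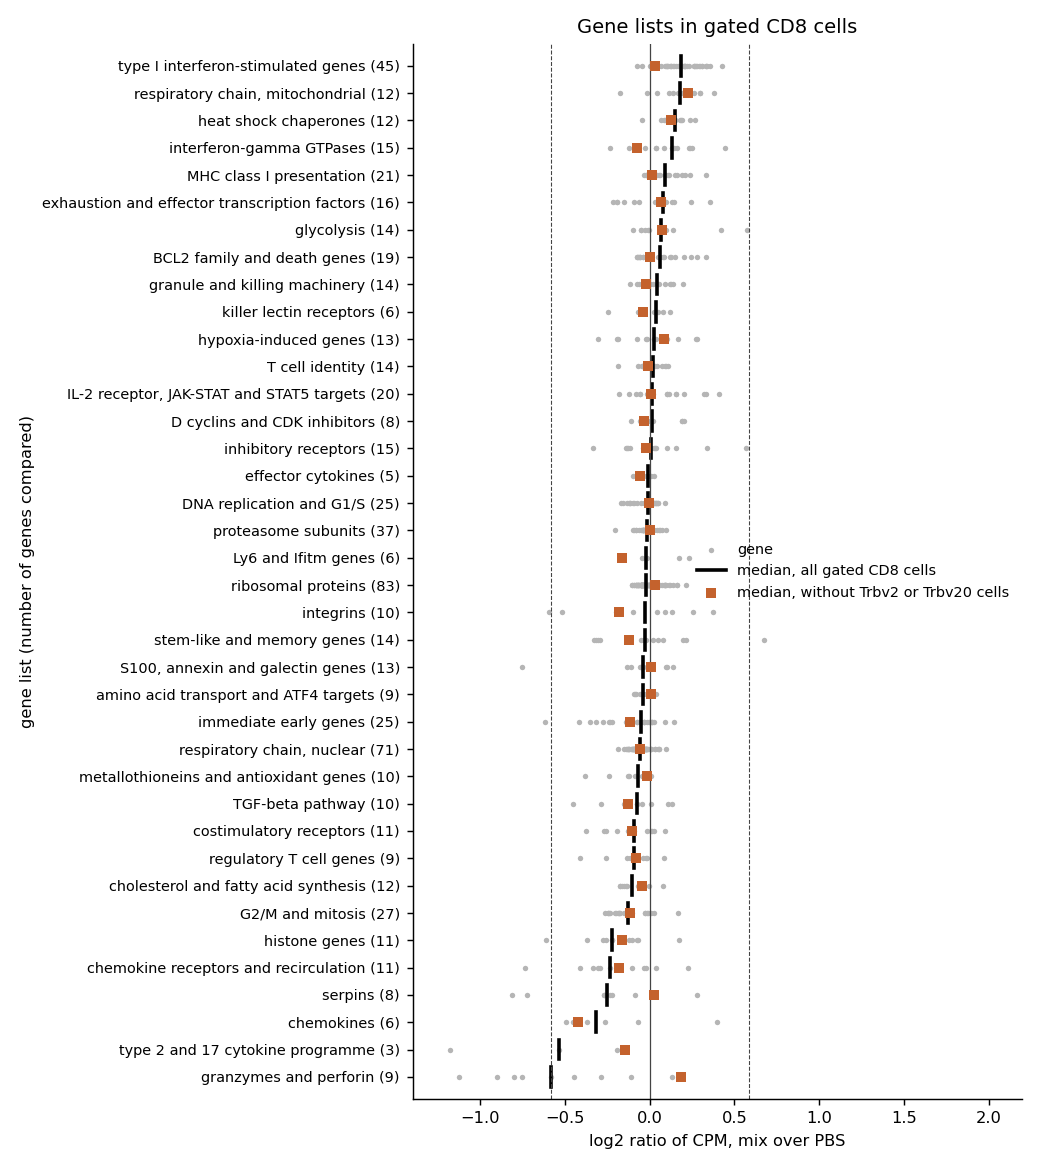
Log2 ratio of CPM, mix over PBS (horizontal), of the genes of each list (grey points), with the list median in all gated CD8 cells (black bar) and without cells holding Trbv2 or Trbv20 (square); dashed lines mark 1.5-fold, and the T cell receptor V list is not drawn. Granzymes and perforin have the lowest median, -0.58, which is 0.18 without these cells, and the interferon-stimulated genes the highest, 0.19, which is 0.03 without them.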

How the data were processed

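Counts of UMIs per gene and cell barcode were deposited as raw whole numbers. Cell Ranger 7.1.0 made them per the file headers, whereas version 2.1.1 stands in the submitters' processing notes, beside mm39 and Seurat 4.1.0. Groups are the labels PBS and mix; homo was left out. Gated cells were summed per library and scaled to CPM. Ratios carry exact conditional binomial intervals and shares exact Clopper-Pearson intervals, both at 95%, for counting error only. No doublet caller was run; instead cells with other types' markers and the 5% of cells with the most UMIs were left out as alternatives. The members and lists were chosen with earlier results of these data known. The text names the 12 genes highest and 12 lowest by the interval end nearest no change (receptor, ribosomal, mitochondrial, haemoglobin, sex-linked and unnamed genes left out). It also names a set of T cell genes, all granzymes and up to 4 members of each of 39 lists, beside 11 marker lists. Other genes, such as those alike in every family, were chosen after their values were seen. The code was tested on simulated data. Scaling, gene floor, gate, thinning, cell weights and left-out cells were varied; leaving out Trbv2 or Trbv20 cells was chosen after seeing the data. Python 3.11.15, numpy 2.4.6, scipy 1.17.1, pandas 2.3.3, matplotlib 3.10.9 and edgeR 4.0.16 were used, edgeR for its scaling factors only.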

Additional observations from a re-analysis of the deposited data

How the results depend on the processing

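Under 12 settings of scaling, thinning, weights, gate and cells, the 50 named genes past 1.5-fold gave 600 values, of which 0 changed direction. These genes were chosen as past 1.5-fold on the same counts, and the settings reused many of the same cells. The edgeR factors, for example, shifted log2 ratios by only -0.0055, so such settings could hardly turn a direction. The counts of 42 higher and 47 lower genes became 12 and 14 with a gene floor of 50 CPM and 1591 and 1653 with no gene floor. Under the 15 other settings they ran from 42 to 55 and from 45 to 58. Gated cells were 67.0% in mix and 70.5% in PBS when both Cd8a and Cd8b1 were required, and 78.7% and 82.1% when Cd4 and Foxp3 were allowed. The median of the T cell receptor V list, -0.80 over 44 genes, turned to 0.48 with the floor of 50 CPM and to 0.22 with no floor. The floor changed only which genes were counted, 12 and 104 of them, and left each ratio as it was. Leaving out Trbv2, Trbv20 or both kinds of cells gave 150 values, of which 16 in 10 genes turned. Without Trbv2 cells Areg was at 1.03, Gzmg at 0.73, Gzmd at 0.27, Serpinb9b at 0.30, Nrn1 at 0.21, Exph5 at 0.17, Mt3 at 0.036 and Myo16 at 0.0017. Without Trbv20 cells Dsc2 was at -1.07. Without both, Areg was at 1.08, Gzmg at 0.66, Gzmd at 0.31, Serpinb9b at 0.34, Nrn1 at 0.34, Exph5 at 0.18 and Rln3 at -0.047. The median over all genes stayed between -0.016 and 0.0072. No paired analysis was possible because each group is 1 library. The design has no replicate, so the spread between animals is unknown. Bcs1l, at the gene floor of 10 CPM, had 376 UMIs in mix and 453 in PBS, and counts within single families were smaller. UMIs of genes of low level can also lie in few cells, as for Areg and Penk.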

Other observations

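The immediate early gene Ier3 had a log2 ratio of -0.62 and was the only 1 of 25 such genes compared past 1.5-fold. The 3 compared genes of the type 2 and 17 cytokine list, Areg, Rora and Gata3, were at -1.18, -0.54 and -0.20. Of 11 histone genes compared, Hist1h2bj at -0.61 was past 1.5-fold and the median was -0.22. Cells with UMIs of Tcf7 and none of Havcr2 were 11.3% of gated mix cells and 9.62% of gated PBS cells, and 7.43% and 6.36% after thinning. Of 8 serpins compared, Serpinb9b and Serpine2 were past 1.5-fold, both lower, and the median was -0.25, or 0.03 without Trbv2 and Trbv20 cells. The lists not described so far had medians from -0.10, for cholesterol and fatty acid synthesis, to 0.09, for MHC class I presentation, and their only genes past 1.5-fold were Itgb7 among the integrins and Anxa1 among the S100, annexin and galectin genes.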
